A study of Mus musculus with 9 samples.

Results

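The 51 genes described here encode the machinery of the cell cycle, from G1 cyclins and cyclin-dependent kinase (CDK) inhibitors to replication factors, mitotic kinases and spindle proteins. They were chosen by gene symbol from an expression table of 23420 genes, by a rule that uses no measured value, though with earlier results of these data known. All 51 were in the table, and all 51 had a mean of 10 or more normalized counts over the 9 libraries, as did 11357 genes in all. RNA was sequenced from regulatory T cells (Tregs), the CD4 T cells that express the transcription factor Foxp3 and restrain immune responses. The first group of 3 libraries came from the synovium, the joint lining, of wild-type mice with collagen-induced arthritis, a model of inflammatory joint disease. The next group of 3 came from draining lymph nodes of arthritic mice with the same mouse numbers, and the last of 3 from draining nodes of untreated wild-type mice. Paws and nodes were digested in every group, and the cells were sorted on YFP from a Foxp3 reporter, so each library holds reporter-positive cells. The sources used here state no strain, age or number of sorted cells.

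A cell that divides passes from G1 through DNA synthesis (S phase) and G2 to mitosis. D-type and E-type cyclins with their kinases inactivate the retinoblastoma protein Rb1 and release E2F transcription factors, which drive genes for DNA synthesis, and later the DREAM and MuvB complexes with Foxm1 control genes of mitosis. Cdkn1a (p21) and Cdkn1b (p27) hold CDKs in check. Tregs are known to divide in lymphoid and inflamed tissue, and bulk RNA from sorted cells cannot tell more dividing cells from more transcript per dividing cell.

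Values are normalized counts, that is, reads divided by a size factor per library, and those of each group are given in the order of libraries 1, 2 and 3. Each log2 fold change is the difference of group means of log2(value + 1), from limma, ± its standard error, and a gene was called changed at a Benjamini-Hochberg adjusted p under 0.05 over all genes tested. Libraries held 11300406 to 12855435 reads assigned to genes. Foxp3 stood at 413 to 538 in synovium, 222 to 294 in arthritic nodes and 170 to 404 in control nodes. The germinal centre gene Rgs13 and the red cell gene Hba-a1 were listed at 0 in all 9 libraries, but other genes of their lists were not. The 5 germinal centre genes in the table summed to 4149 to 6599 in synovium and 1452 to 2096 in the nodes. Only 2 of these 5 reached a mean of 10, so the sum rests on those. This list includes Fas, which is also among the listed p53 targets. The 5 red cell genes in the table summed to 6.99 to 31.1 over the 9 libraries. Control node library 2 stood apart: it was the lowest of the 9 libraries for 31 of the 51 genes, and for 19 of the 25 genes of the mitotic and chromatin groups. Arthritic node library 3 was the highest for 15 genes and synovial library 3 for 13. Synovial library 3 also held the most RNA of fibroblast genes, with a summed level of 6451 for the 10 listed against 3072 and 3362 in the other synovial libraries, 3774 to 4605 in arthritic nodes and 4211 to 4388 in control nodes. Within that list Pdgfra was at 0 in the other 8 libraries. The mean log2 level of the 8 fibroblast genes tested gave another order of the libraries than the sum. It was 5.05, 4.34 and 9.08 in synovium, 2.92, 3.37 and 5.98 in arthritic nodes and 3.31 to 3.76 in control nodes.

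**Figure D1:**
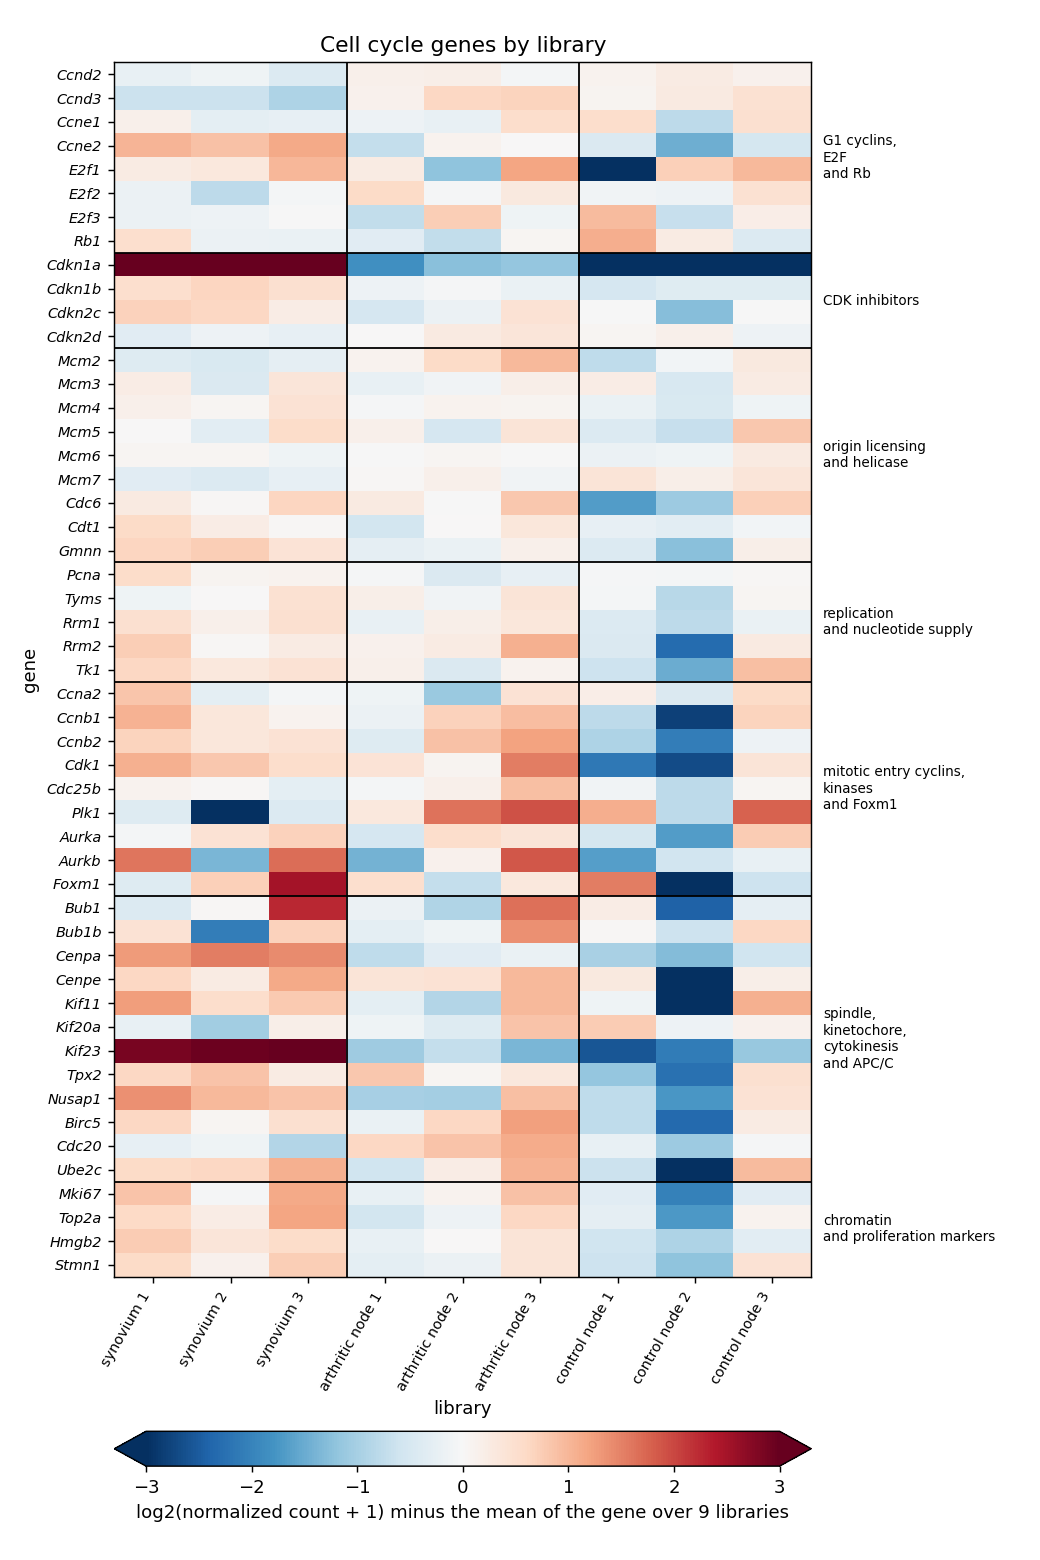
Heat map of the 51 cell cycle genes (rows, grouped by role) in the 9 libraries (columns). Color is log2(normalized count + 1) minus the mean of the gene over the 9 libraries, cut at -3 and 3. Cdkn1a and Kif23 were far above their means in all 3 synovial libraries, and control node library 2 was the lowest for 31 of the 51 genes.

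Between synovial and node Tregs of arthritic mice, 12 of the 51 genes changed, 6 higher and 6 lower in synovium. That is 23.5% of them, against 33.8% of all genes tested (17.9% higher and 15.9% lower). The 6 higher genes were Cdkn1a, Kif23, Cenpa, Ccne2, Cdkn1b and Pcna, and the 6 lower genes were Plk1, Cdc20, Ccnd3, Mcm2, Cdkn2d and Ccnd2. The synovial and node libraries did not overlap for 16 of the 51 (31.4%, against 48.2% of all genes), 8 above (25.2% of all genes) and 8 below (23% of all genes). The median log2 fold change of the 51 was 0.18, against -1e-04 over all genes. A fit of these 6 libraries alone called 14 genes, without Plk1 and with Gmnn, Nusap1 and Hmgb2 on the higher side. Mouse numbers pair the libraries, and with the mouse as a block the same 6 gave 16 genes, which added Top2a and Plk1. The calls of 5 genes (Cdkn1a, Kif23, Cenpa, Cdkn1b and Ccnd3) held in all 20 alternative analyses. Without arthritic node library 2 the count was 6, and without the mean-variance trend it was 7.

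Between Tregs of the 2 kinds of node, arthritic and control, 1 of the 51 genes changed, Cdkn1a. Over all genes 0.343% were called (0.335% higher and 0.00881% lower). A further 13 of the 51 had an unadjusted limma p under 0.05, which makes 27.5% with Cdkn1a, against 9.08% of all genes. The libraries did not overlap for 8 of the 51 (15.7%, against 14.9% of all genes), 7 above (7.89% of all genes) and 1 below (7.03% of all genes). The median log2 fold change was 0.58, against 0.01 over all genes, and 42 of the 51 were above 0. Without control node library 2 the median was 0.14 and 33 of the 51 were above 0. DESeq2 on the recovered reads called Ccnb2 and Cdc20 as well, and without control node library 3 limma called Cdk1 as well (log2 3.10, adjusted p = 0.0267).

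Between synovial Tregs and control node Tregs, which differ in both tissue and disease, 19 of the 51 genes changed, 16 higher and 3 lower in synovium. That is 37.3%, against 40.1% of all genes (21.6% higher and 18.5% lower). Libraries did not overlap for 21 of the 51 (41.2%, against 50% of all genes), 17 above (26.2% of all genes) and 4 below (23.8% of all genes). The 3 lower genes were Ccnd2, Ccnd3 and Mcm7. The median log2 fold change was 0.94, against 0.02 over all genes, and without control node library 2 it was 0.44, with 10 genes called. Without synovial library 1, 11 genes were called. This comparison shares its synovial libraries with the tissue comparison and its control libraries with the disease comparison, so the values below stand side by side and are not independent.

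**Figure D2:**
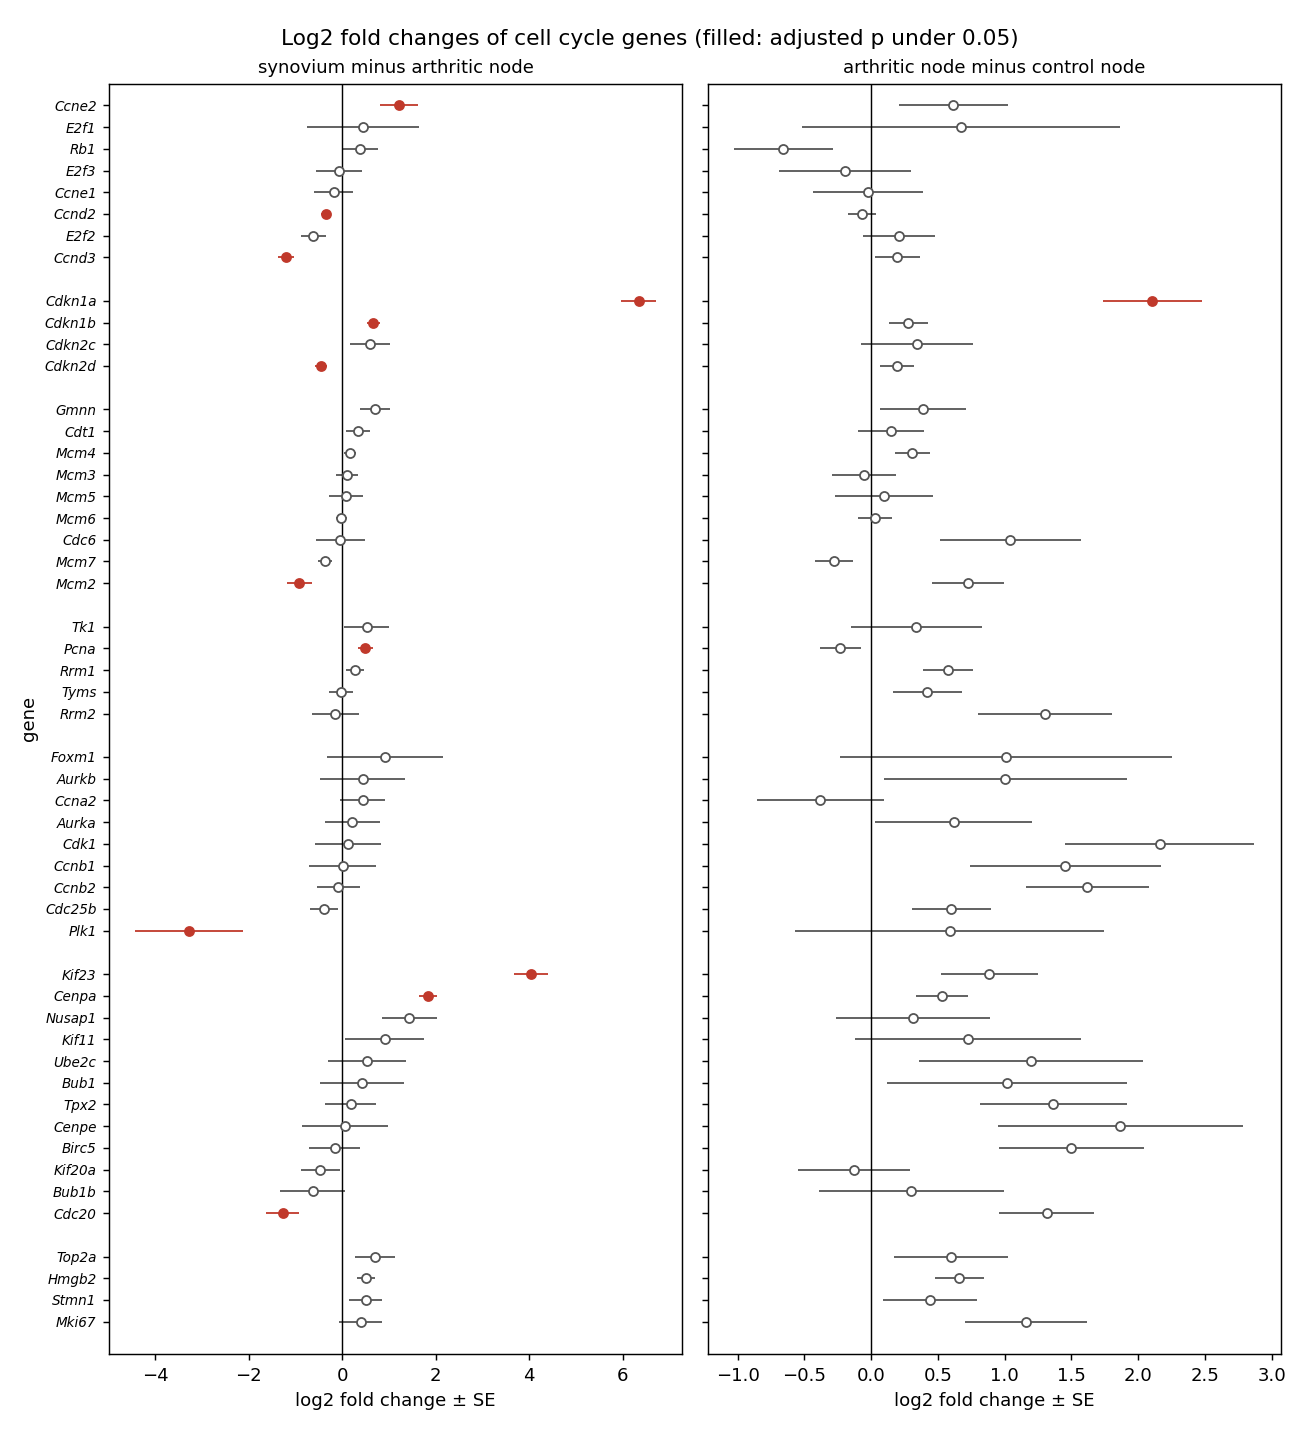
Log2 fold changes (points) with standard errors (bars) of the 51 genes, grouped by role, for synovium against arthritic node (left) and arthritic against control node (right). Filled points had an adjusted p under 0.05. The left panel holds 12 filled points, led by Cdkn1a at 6.34 and Kif23 at 4.04, and the right panel holds only Cdkn1a, at 2.11.

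Among the 4 CDK inhibitors 2 rose and 1 fell in synovium against arthritic nodes, where 17.9% of all genes rose and 15.9% fell. Cdkn1a had the largest fold change of the 51 genes. Cdkn1a, which encodes the inhibitor p21, a textbook target of p53, had 6877, 8743 and 5956 normalized counts in synovium, 64.4, 97.2 and 103 in arthritic nodes and 25.1, 9.93 and 28.3 in control nodes. Neither step overlapped: every synovial library was above every arthritic node library, and every arthritic node library above every control library. Synovial Cdkn1a was 81.3 times the arthritic node level (log2 6.34 ± 0.37, limma adjusted p = 1.32e-07). In arthritic against control nodes it was 4.31-fold higher (2.11 ± 0.37, adjusted p = 0.0321). The call of that smaller step was lost in a fit of the node libraries alone (adjusted p = 0.331). It was also lost without arthritic node library 2 (0.182) or 3 (0.152), and without synovial library 1, 2 or 3, which enter only through the shared spread (0.126, 0.0756 and 0.103).

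The gene lies on chromosome 17 (GRCm38 29090976 to 29100727, plus strand, 4 exon blocks, ENSMUSG00000023067.14 in GENCODE vM21). RefSeq (GRCm38.p6) gives it an upstream and a downstream start. The 120 bases before the upstream start are shown because p53 is known to act on this gene, and capitals mark a match to the p53 consensus, a pair of adjoining half-sites, with 1 mismatch.

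Cdkn1a chr17:29090859-29090978 (+): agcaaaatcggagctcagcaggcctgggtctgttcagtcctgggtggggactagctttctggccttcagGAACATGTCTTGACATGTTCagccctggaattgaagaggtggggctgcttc

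The 20-base match began 51 bases before the start. Such a match with up to 1 mismatch was found in 29 of 32851 RefSeq promoters of 300 bases (0.0883%), in 1 of the 46 promoters of cell cycle genes, and in 1 of 17 promoters of the listed p53 targets, that of Ccng1. The consensus was searched for after the sequence had been seen, and the match is a description of these letters, not evidence of binding.

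Cdkn1b, which encodes the inhibitor p27, had 945, 1045 and 927 in synovium, 598, 656 and 583 in arthritic nodes and 470, 521 and 522 in control nodes. Its groups did not overlap at either step. Synovium was 1.59-fold above arthritic nodes (0.67 ± 0.14, adjusted p = 0.00352), and the step between the nodes was 0.28 ± 0.14 (adjusted p = 0.61). Cdkn1a and Cdkn1b were the 2 genes of the 51 whose libraries were in the order synovium above arthritic node above control node without overlap.

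Of the INK4 inhibitors, which bind the kinases of the D-type cyclins, Cdkn2d (p19) went the other way. It had 1463, 1658 and 1559 in synovium, 1864, 2224 and 2373 in arthritic nodes and 1909, 2062 and 1666 in control nodes. All 3 synovial libraries were below every node library. The change against arthritic nodes was -0.46 ± 0.13 (adjusted p = 0.016), and it lost its call without synovial library 1 (0.0583) or arthritic node library 2 (0.0575) or 3 (0.0735). Cdkn2c (p18) overlapped between synovium, at 138 to 193, and arthritic nodes, at 83.5 to 160.

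**Figure D3:**
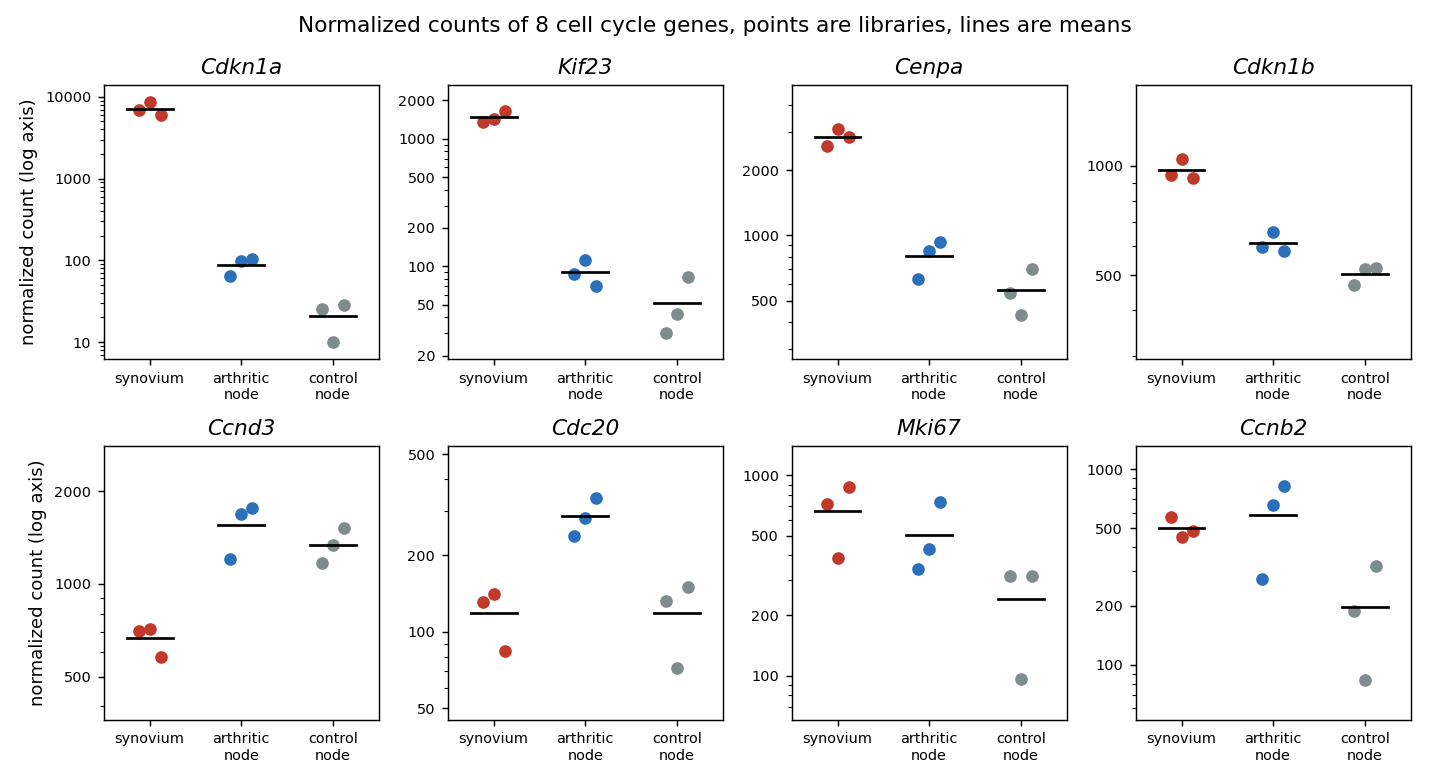
Normalized counts (log axis) of 8 cell cycle genes by group, with 1 point per library and a line at the group mean. Cdkn1a, Kif23, Cenpa and Cdkn1b were higher in all synovial libraries than in any node library, Ccnd3 was lower in all of them, Cdc20 was highest in the arthritic nodes, and Mki67 and Ccnb2 overlapped between synovium and arthritic nodes.

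Of the D-type cyclins, which couple growth signals to G1 kinases, Ccnd3 and Ccnd2 were lower in synovium. Ccnd1, the other D-type cyclin and not one of the 51, had means of 22.4, 22.1 and 13.5 in synovium, arthritic nodes and control nodes, and was not called. Ccnd3 had 705, 712 and 579 in synovium, 1208, 1690 and 1758 in arthritic nodes and 1169, 1337 and 1521 in control nodes. Every synovial library was below every node library, while the node groups overlapped. Ccnd3 fell by 1.21 ± 0.17 on the log2 scale against arthritic nodes (adjusted p = 1.90e-04) and by 1.01 ± 0.17 against control nodes (adjusted p = 5.69e-04). Ccnd2 had 13619, 14332 and 11833 in synovium, 17546, 17868 and 15249 in arthritic nodes and 17090, 18744 and 17168 in control nodes. Here too the synovial libraries were the lowest 3. The change was smaller, at -0.35 ± 0.10 against arthritic nodes (adjusted p = 0.02) and -0.42 ± 0.10 against control nodes (adjusted p = 0.00668). The first of these calls was lost without synovial library 3 (0.0682) or arthritic node library 1 (0.0752) or 2 (0.0796).

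Ccne2, an E-type cyclin that acts at the entry to S phase, had 192, 175 and 208 in synovium, 57.4, 101 and 95.2 in arthritic nodes and 69.3, 33.4 and 64.8 in control nodes. The synovial libraries were the highest 3. Its difference from arthritic nodes was 1.21 ± 0.41 (adjusted p = 0.0371), and leaving out any 1 of the 6 libraries compared ended the call (adjusted p 0.0518 to 0.136). Against control nodes it was 1.83 ± 0.41 (adjusted p = 0.0036). Ccne1, the other E-type cyclin, overlapped in every comparison, at 98.6 to 133 in synovium and 69.5 to 176 over the nodes. The exons of Ccne2 overlap those of Ints8 on the opposite strand over 17.4% of their length, and whether reads were counted by strand is not given in the sources used.

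Rb1, the pocket protein that restrains E2F, had 381, 237 and 233 in synovium, 210, 160 and 279 in arthritic nodes and 575, 319 and 201 in control nodes. The groups overlapped, and no comparison passed the test (adjusted p 0.459, 0.671 and 0.598). E2f1, E2f2 and E2f3, the activating E2F factors, did not pass it either. E2f2 had 282, 184 and 306 in synovium against 478, 309 and 389 in arthritic nodes, without overlap (-0.62 ± 0.27, adjusted p = 0.102). E2f3 had 81.5 to 91.0 in synovium, 54.8 to 154 in arthritic nodes and 56.0 to 177 in control nodes. E2f1 was near the floor of the counting, with 12.1, 12.9 and 21.4 in synovium, 12.2, 3.85 and 24.5 in arthritic nodes and 0, 17.2 and 21 in control nodes, where 3 reads correspond to 2.61 to 3.52.

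Of the 14 genes of S phase 2 were called between synovium and arthritic nodes, where 33.8% of all genes were. Of the 9 licensing and helicase genes, which load and fire the replicative helicase at origins, 1 fell in synovium against arthritic nodes and none rose. That gene was Mcm2, a helicase subunit, with 445, 425 and 481 in synovium, 622, 865 and 1136 in arthritic nodes and 341, 552 and 715 in control nodes. Synovial libraries were below all arthritic node libraries but within the range of the controls. The change was -0.91 ± 0.27 (adjusted p = 0.0208), against 0.73 ± 0.27 between the nodes (adjusted p = 0.446). The tissue call was lost without synovial library 1 (0.0562) or 2 (0.0548) or arthritic node library 2 (0.0608) or 3 (0.097).

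The other helicase subunits, which assemble with Mcm2 in a ring, did not follow it in this test. Mcm6 was nearly level, at 2913 to 3295 in synovium, 3152 to 3290 in arthritic nodes and 2815 to 3809 in control nodes (-0.02 ± 0.12 for tissue, adjusted p = 0.929). Mcm3 had 804 to 1401 in synovium, 924 to 1237 in arthritic nodes and 781 to 1297 in control nodes, and Mcm5 had 501 to 923, 438 to 814 and 389 to 1102. Mcm7 had 642, 612 and 685 in synovium, 841, 913 and 754 in arthritic nodes and 1072, 918 and 1051 in control nodes. It was the 1 gene of the 51 with the reverse order, each group below the next without overlap. Mcm7 fell by 0.65 ± 0.14 against control nodes (adjusted p = 0.00323), while the tissue step was -0.37 ± 0.14 (adjusted p = 0.0638 with limma, 0.0436 with edgeR and 0.0442 with DESeq2). That DESeq2 fit used all 9 libraries, and the authors' deposited DESeq2 comparison of synovium with arthritic nodes gives Mcm7 an adjusted p of 0.078. Mcm4 had 2282, 2119 and 2753 in synovium, 1995, 2182 and 2145 in arthritic nodes and 1775, 1474 and 1871 in control nodes. Both groups of arthritic mice lay above the controls, and synovial Mcm4 rose by 0.48 ± 0.13 against them (adjusted p = 0.0122). That call was lost without control node library 2 (0.0573) and with quantile scaling (0.185).

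Gmnn, whose product geminin blocks a second round of licensing, had 443, 474 and 379 in synovium, 236, 248 and 314 in arthritic nodes and 214, 118 and 323 in control nodes. The synovial libraries were the highest 3 of the 9. The tissue difference was 0.70 ± 0.32 (adjusted p = 0.115, and in the 6 libraries alone 0.0297 without and 0.0478 with the mouse as a block). Against control nodes it was 1.09 ± 0.32 (adjusted p = 0.0177), a call that was lost without synovial library 1 (0.0532) or 2 (0.0545) or control node library 2 (0.0619). Cdt1 and Cdc6, the loading factors, passed no test. Cdt1 had 376 to 550 in synovium, 254 to 470 in arthritic nodes and 296 to 350 in control nodes. Cdc6 had 158, 134 and 206 in synovium, 158, 129 and 230 in arthritic nodes and 40.1, 60.5 and 215 in control nodes, so 2 of the 3 control libraries were low.

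Among the replication and nucleotide supply genes, 1 of 5 rose in synovium against arthritic nodes, where 17.9% of all genes did. Pcna, the sliding clamp of DNA polymerases, had 1820, 1313 and 1328 in synovium, 1193, 913 and 1040 in arthritic nodes and 1206, 1193 and 1268 in control nodes. The synovial libraries were above all node libraries. The tissue difference was 0.50 ± 0.16 (adjusted p = 0.027), and its call was lost without synovial library 1 (0.117), without arthritic node library 2 (0.109) or 3 (0.0681) and with quantile scaling (0.158). Rrm1, the large subunit of ribonucleotide reductase, had 1843, 1457 and 1851 in synovium, 1126, 1499 and 1678 in arthritic nodes and 988, 760 and 1139 in control nodes. It rose against control nodes by 0.85 ± 0.19 (adjusted p = 0.00343), and the call held in every alternative analysis. The small subunit Rrm2 had 1448, 899 and 1041 in synovium, 963, 1034 and 1834 in arthritic nodes and 646, 176 and 1059 in control nodes (1.16 ± 0.50 against controls, adjusted p = 0.0839). Tk1, a thymidine salvage kinase, had 240, 195 and 210 in synovium, 173, 114 and 167 in arthritic nodes and 101, 55.1 and 290 in control nodes. Synovium lay above the arthritic nodes, but the difference did not pass the test. Tyms, which makes thymidylate, had 464 to 698 in synovium, 470 to 655 in arthritic nodes and 283 to 530 in control nodes.

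The mitotic groups held 21 genes, of which 2 rose (Kif23 and Cenpa) and 2 fell (Cdc20 and Plk1) in synovium against arthritic nodes. Of all genes 17.9% rose and 15.9% fell there. The median of the 21 was 0.18, against -1e-04 over all genes, and the other 17 were not called in the fit of all 9 libraries. Kif23, a kinesin of the central spindle that acts in cytokinesis, had 1343, 1433 and 1650 in synovium, 87.0, 113 and 70.8 in arthritic nodes and 30.1, 42.4 and 83.1 in control nodes. All synovial libraries were far above all node libraries, and the node groups overlapped. Synovial Kif23 was 16.4 times the arthritic node level (4.04 ± 0.36, adjusted p = 4.52e-06) and 30.4 times that of control nodes (4.92 ± 0.36, adjusted p = 6.56e-07). It lies on chromosome 9 (GRCm38 61915905 to 61946774, minus strand, ENSMUSG00000032254.10), where no exon of another gene in GENCODE vM21 overlaps its exons. The other kinesins of the set passed no test. Kif11, which separates spindle poles, had 641, 390 and 463 in synovium, 222, 147 and 528 in arthritic nodes and 248, 26.2 and 571 in control nodes. Kif20a, the other cytokinesis kinesin of the set, had 151, 84.5 and 200 in synovium, 160, 134 and 321 in arthritic nodes and 296, 157 and 194 in control nodes, and overlapped in every comparison. The exons of Kif20a overlap those of Cdc23 on the opposite strand over 29.3% of their length, and the strand setting is not given.

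Cenpa, the histone variant that marks centromeres, had 2589, 3087 and 2849 in synovium, 628, 852 and 932 in arthritic nodes and 542, 432 and 704 in control nodes. The synovial libraries were all above the node libraries. Cenpa was 3.57-fold higher than in arthritic nodes (1.84 ± 0.20, adjusted p = 1.91e-05) and 5.16-fold higher than in control nodes (2.37 ± 0.20, adjusted p = 1.69e-06). The gene lies on chromosome 5 (GRCm38 30666777 to 30674830, plus strand, ENSMUSG00000029177.9), also with no exon overlap. Exons of Cdkn1a are overlapped over 7.68% of their length by a gene model on the opposite strand. Cenpe, the kinesin of the kinetochore, had 214, 167 and 306 in synovium, 182, 190 and 276 in arthritic nodes and 170, 6.32 and 158 in control nodes, with 1 control library far below the others. The disease difference was 1.87 ± 0.92 (adjusted p = 0.592).

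Cdc20, the activator of the anaphase-promoting complex (APC/C), was highest in arthritic nodes. It had 131, 141 and 84.3 in synovium, 238, 280 and 337 in arthritic nodes and 132, 72.2 and 150 in control nodes. The arthritic node libraries were above all others, and synovium and control nodes overlapped. Cdc20 fell by 1.28 ± 0.36 in synovium against arthritic nodes (adjusted p = 0.0149), and the call was lost without synovial library 3 (0.0567) or arthritic node library 3 (0.0624). The disease difference was 1.32 ± 0.36 (adjusted p = 0.212 with limma and 0.0389 with DESeq2). Synovium against control nodes gave 0.04 ± 0.36 (adjusted p = 0.944), a difference that turned negative with quantile scaling. The APC/C partner enzyme Ube2c had 116, 119 and 163 in synovium, 50.4, 89.5 and 160 in arthritic nodes and 49.2, 7.22 and 150 in control nodes, and passed no test. The exons of Ube2c overlap those of Tnnc2 on the opposite strand over 22.8% of their length.

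Plk1, a kinase of mitotic entry and exit, had 26.4, 0 and 25.8 in synovium, 43.5, 110 and 134 in arthritic nodes and 75.3, 19.9 and 121 in control nodes. Synovial libraries were below all arthritic node libraries but overlapped the controls through control library 2. The change of -3.27 ± 1.16 (adjusted p = 0.0455) rested on the library at 0: without synovial library 2 it was -1.68 (adjusted p = 0.128). The call was lost under 11 alternatives in all, among them edgeR (adjusted p = 0.0847). It was lost too without arthritic node library 1 (0.0579), 2 (0.121) or 3 (0.133) and without control node library 1 (0.0562) or 3 (0.0508), which enter through the shared spread.

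The mitotic cyclins and their kinase overlapped between synovium and arthritic nodes. Ccnb2, a B-type cyclin, had 572, 451 and 485 in synovium, 275, 656 and 823 in arthritic nodes and 189, 84.0 and 319 in control nodes. Both groups of arthritic mice were higher than controls, except that arthritic node library 1 lay below control library 3. Ccnb2 rose by 1.54 ± 0.46 in synovium against control nodes (adjusted p = 0.0186). The disease difference was 1.62 ± 0.46 (adjusted p = 0.245 with limma and 0.038 with DESeq2), and the tissue difference was -0.08 ± 0.46 (adjusted p = 0.913). Cdk1, the kinase that B-type cyclins activate, had 147, 122 and 101 in synovium, 93.1, 74.1 and 204 in arthritic nodes and 15.1, 9.93 and 91.3 in control nodes. It rose by 2.28 ± 0.71 against control nodes with limma (adjusted p = 0.0227), but not with edgeR (0.107) or DESeq2 (0.0591). Ccna2, which serves S phase and G2, had 195, 89.2 and 106 in synovium, 99.1, 50.03 and 149 in arthritic nodes and 125, 80.3 and 163 in control nodes, and overlapped in every comparison. Ccnb1, the other B-type cyclin, had 170, 103 and 87.7 in synovium, 72.2, 132 and 157 in arthritic nodes and 47.2, 10.8 and 130 in control nodes, and passed no test.

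Calls of several mitotic genes against control nodes were lost without single libraries or with another tool. Nusap1, which bundles spindle microtubules, had 405, 305 and 284 in synovium, 78.3, 76.0 and 291 in arthritic nodes and 92.3, 46.0 and 210 in control nodes (1.75 ± 0.58, adjusted p = 0.0297). Tpx2, an activator of Aurora A on the spindle, had 230, 270 and 178 in synovium, 261, 155 and 187 in arthritic nodes and 66.2, 30.7 and 210 in control nodes (1.55 ± 0.55, adjusted p = 0.0413). Control library 3 lay within the synovial range for Tpx2 and below it for Nusap1. Without control library 2 the calls of Ccnb2 (adjusted p = 0.0725), Cdk1 (0.0857), Nusap1 (0.117) and Tpx2 (0.154) were all lost. Without synovial library 1 they were lost too, at 0.0633, 0.0727, 0.0968 and 0.0985. Other libraries ended some of them: synovial library 2 those of Cdk1 (0.0541), Nusap1 (0.0603) and Tpx2 (0.111), synovial library 3 those of Ccnb2 (0.0521), Nusap1 (0.0629) and Tpx2 (0.0663), and control library 1 those of Cdk1 (0.0727), Nusap1 (0.0676) and Tpx2 (0.0971). The call of Tpx2 was also lost without arthritic node library 1, 2 or 3 (0.054, 0.0537 and 0.0546). Against arthritic nodes Nusap1 differed by 1.44 (adjusted p = 0.0751). In those 6 libraries alone its adjusted p was 0.0413 without and 0.0343 with the mouse as a block, and without arthritic node library 3 it was 0.0144. The tool mattered too: edgeR did not call Nusap1 (0.0726) or Tpx2 (0.143) against control nodes, DESeq2 did not call Tpx2 (0.0981), and Tpx2 was not called in those 2 groups alone (0.0746).

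The remaining mitotic genes spread widely among libraries of 1 group. Aurkb, the kinase of the chromosomal passenger complex, had 219, 27.0 and 230 in synovium, 26.1, 77.9 and 265 in arthritic nodes and 22.1, 47.8 and 61.2 in control nodes. Bub1, of the spindle checkpoint, had 39.7, 54.0 and 257 in synovium, 47.0, 27.9 and 169 in arthritic nodes and 62.2, 9.03 and 43.8 in control nodes. Foxm1, the transcription factor of G2 genes, had 9.92, 22.3 and 79.8 in synovium, 19.1, 7.70 and 16.6 in arthritic nodes and 40.1, 0 and 8.22 in control nodes. Single libraries stood out in each: synovial library 2 was low for Aurkb and synovial library 3 high for Bub1 and Foxm1. Birc5 (survivin), the partner of Aurkb, had 355, 241 and 323 in synovium, 199, 354 and 544 in arthritic nodes and 134, 45.1 and 273 in control nodes. Bub1b, a checkpoint kinase, had 151, 25.8 and 183 in synovium, 91.3, 102 and 290 in arthritic nodes and 115, 72.2 and 173 in control nodes. Aurka, the spindle pole kinase, had 68.3 to 117 in synovium, 50.4 to 103 in arthritic nodes and 21.7 to 121 in control nodes, and the phosphatase gene Cdc25b had 267 to 350, 313 to 610 and 190 to 341. For none of these did any comparison pass the test, and the groups overlapped in every comparison.

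**Figure D4:**
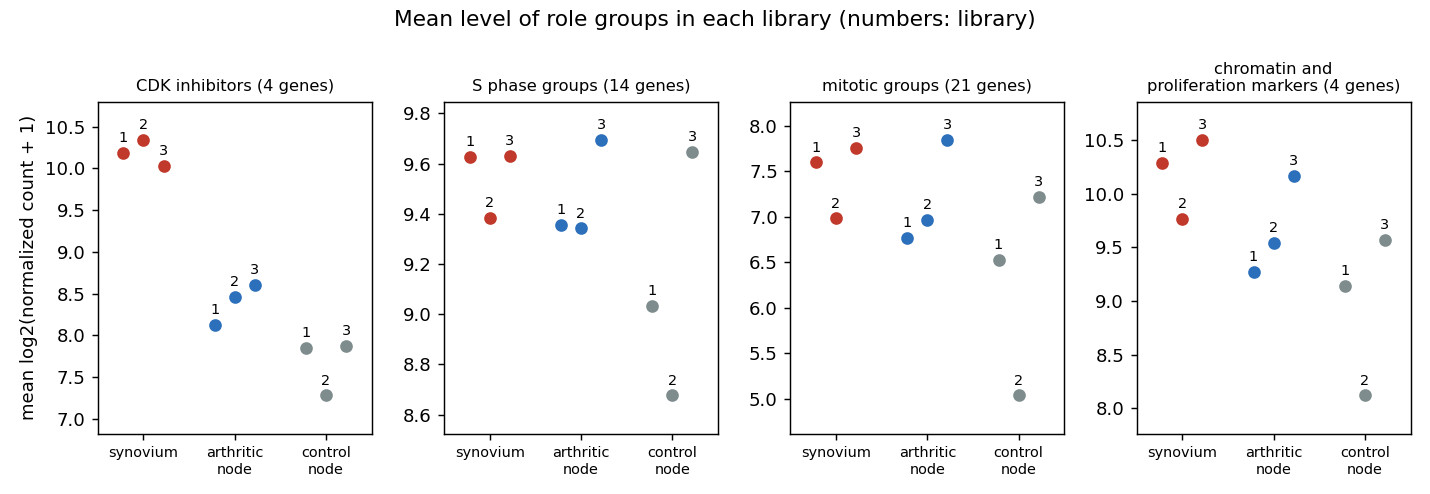
Mean log2(normalized count + 1) of the genes of 4 role groups in each library (points, numbered by library). The mean of the 4 CDK inhibitors, which include Cdkn1a, did not overlap between the 3 groups, although Cdkn2d and Cdkn2c alone did not follow that order, and the mitotic groups overlapped, with control node library 2 lowest at 5.04 and arthritic node library 3 highest at 7.84.

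As a whole, the 21 mitotic genes had a mean log2 level of 7.60, 6.98 and 7.76 in synovium, 6.77, 6.97 and 7.84 in arthritic nodes and 6.53, 5.04 and 7.22 in control nodes. The 3 groups overlapped, and arthritic node library 3 was the highest of the 9. Their median log2 difference between arthritic and control nodes was 1.01. It was 0.35 without control node library 2 and 0.50 without arthritic node library 3. For the 14 S phase genes the level ran from 9.38 to 9.63 in synovium, from 9.34 to 9.69 in arthritic nodes and from 8.68 to 9.65 in control nodes.

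The 4 chromatin and proliferation markers were not called between synovium and arthritic nodes in the fit of all 9 libraries. All 4 rose in synovium against control nodes, where 21.6% of all genes did. Mki67, which coats mitotic chromosomes and is the usual label of cycling cells, had 718, 389 and 879 in synovium, 343, 429 and 736 in arthritic nodes and 313, 96.6 and 316 in control nodes. Arthritic node libraries were all above control libraries but overlapped synovium. The tissue difference was 0.39 ± 0.46 (adjusted p = 0.545), the disease difference 1.16 ± 0.46 (adjusted p = 0.468) and the difference between synovium and control nodes 1.56 ± 0.46 (adjusted p = 0.017). Top2a, the topoisomerase that untangles replicated DNA, had 1099, 852 and 1658 in synovium, 494, 654 and 1120 in arthritic nodes and 606, 219 and 779 in control nodes. Its tissue difference was 0.70 ± 0.43 (adjusted p = 0.235, and in the 6 libraries alone 0.11 without and 0.0169 with the mouse as a block), and against control nodes it was 1.30 ± 0.43 (adjusted p = 0.0294).

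Hmgb2, a chromatin protein of cycling cells, had 3884, 2920 and 3351 in synovium, 1947, 2287 and 2982 in arthritic nodes and 1516, 1199 and 1843 in control nodes. All arthritic node libraries were above all controls. Its tissue difference was 0.51 ± 0.19 (adjusted p = 0.0535, 0.0442 in the 6 libraries alone and 0.0409 there with the mouse as a block, and 0.0461 with DESeq2), and it rose by 1.17 ± 0.19 against control nodes (adjusted p = 3.53e-04). Stmn1, which destabilizes microtubules, had 792, 585 and 896 in synovium, 437, 476 and 702 in arthritic nodes and 347, 231 and 723 in control nodes. The groups overlapped, and Stmn1 rose by 0.94 ± 0.35 against control nodes (adjusted p = 0.0485). Of these 4 calls against control nodes, that of Hmgb2 held in all alternatives. Without control library 2 those of Mki67 (0.0587), Top2a (0.109) and Stmn1 (0.193) were lost, and without synovial library 1 (0.0593, 0.065 and 0.12) or 3 (0.0785, 0.125 and 0.152) as well. The call of Stmn1 was also lost without control library 1 (0.122) or arthritic node library 1, 2 or 3 (0.06, 0.0644 and 0.0512). Stmn1 was not called by edgeR (0.12) or DESeq2 (0.072), and Top2a not by edgeR (0.0553).

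Promoters of many of these genes carry shared sequence elements. RefSeq promoters of 300 bases (250 before and 50 from the start) were matched by symbol for 40 of the 51 genes, which have 46 promoters. The E2F site (TTTCCCGC, TTTCGCGC, TTTGCCGC or TTTGGCGC, either strand) was in 9 of the 46 (19.6%), against 2.26% of all 32851 promoters, and 6 of the 9 belong to licensing and helicase genes. The cell cycle homology region, or CHR (TTTGAA or TTCGAA, either strand), to which DREAM and MuvB complexes are known to bind, was in 19 (41.3%), against 19.2% of all. The CCAAT box, read by the factor NF-Y, was in 33 (71.7%), against 37.4%. All 19 promoters with a CHR also held a CCAAT box, a pair found in 7.52% of all promoters. A match describes letters, and the motifs differ in length and so in how often they occur.

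3 promoters with both elements are shown, since their genes took different courses: Kif23 was highest in synovium, Cdc20 in arthritic nodes, and Ccnb2 overlapped between both. Each runs from 100 bases before the RefSeq start (GRCm38.p6) to 20 from it, 5′ to 3′ on the strand of the gene. Capitals mark the CHR and the CCAAT box, on either strand.

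Kif23 chr9:61946780-61946899 (-): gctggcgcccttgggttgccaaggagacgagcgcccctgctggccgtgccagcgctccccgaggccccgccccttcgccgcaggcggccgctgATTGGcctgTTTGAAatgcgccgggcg
Cdc20 chr4:118437324-118437443 (-): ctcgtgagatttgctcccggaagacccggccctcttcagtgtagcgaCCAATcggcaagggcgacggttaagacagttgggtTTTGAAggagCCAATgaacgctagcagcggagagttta
Ccnb2 chr9:70421535-70421654 (-): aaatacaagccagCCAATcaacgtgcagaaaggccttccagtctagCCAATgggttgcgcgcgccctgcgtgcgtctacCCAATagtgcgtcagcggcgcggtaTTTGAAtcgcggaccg

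In Kif23 the CHR began at base 3 after the start and its 1 CCAAT box at -7, on the other strand. In Cdc20 the CHR began at -18, between CCAAT boxes at -53 and -8. In the stretch of Ccnb2 shown the CHR began at base 5 after the start, behind CCAAT boxes at -87, -54 and -21. These 3 genes, chosen for their different courses, had tissue differences of 4.04, -1.28 and -0.08. Whether the elements had a part in any of them was not tested.

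Other genes of the cell cycle, listed by role for this work, were set beside the 51. Of 101 such genes 96 were tested, and 12 rose and 7 fell in synovium against arthritic nodes (19.8%, against 33.8% of all genes). None was called between the nodes by limma, where 11 had an unadjusted p under 0.05 (9.08% of all genes had), and against control nodes 18 rose and 9 fell (28.1%, against 40.1% of all genes). Among G1 kinases, Cdk6 rose by 2.07 ± 0.38 and Cdk4 fell by 1.49 ± 0.15. Cdk4 had 707, 762 and 1019 in synovium, 2335, 2044 and 2567 in arthritic nodes and 2445, 2297 and 2577 in control nodes, and all synovial libraries lay below the nodes. Cdk6 had 363, 229 and 272 in synovium, 49.6, 67.3 and 88.2 in arthritic nodes and 80.3, 49.7 and 80.3 in control nodes, all node libraries lying below synovium. These kinases are alternative partners of the D-type cyclins. The inhibitor Cdkn2b (p15) rose by 2.48 ± 0.72 and the CDK subunit Cks2 by 1.96 ± 0.29.

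Among E2F and DREAM genes, Lin54, the DNA-binding subunit that reads the CHR, rose by 2.35 ± 0.23. Lin54 had 1572, 1175 and 1319 in synovium, 212, 235 and 363 in arthritic nodes and 171, 218 and 209 in control nodes, without overlap between synovium and nodes. E2f5 rose by 1.12 ± 0.39, and the pocket protein Rbl1 (p107) fell by 0.88 ± 0.20. Of 31 other S phase genes 3 rose and 4 fell (22.6% called, against 33.8% of all genes). The 3 that rose were Orc1 (2.60 ± 0.74), Lig1 (1.58 ± 0.29) and the histone mRNA binding protein Slbp (1.11 ± 0.14). Rfc5, Rfc4 and Rpa1 fell by 0.93, 0.90 and 0.50, and Dut, named after its value was seen, fell by 0.43. Of 43 other G2 and M genes tested 4 rose and 1 fell (11.6% called, against 33.8% of all genes). Of the risers, Pttg1 (securin) was named after its value was seen (0.59 ± 0.15). H2afz, a histone variant, rose by 2.47 ± 0.14 and Lmnb1, of the nuclear lamina, by 2.25 ± 0.27. Fzr1 (Cdh1), the other APC/C activator, rose by 1.62 ± 0.48 in the comparison in which Cdc20 fell, and the condensin subunit Smc4 fell by 1.15 ± 0.10.

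Since Cdkn1a is a p53 target, a list of 17 other p53 targets was read beside it. Of 16 tested, 8 rose and 2 fell in synovium against arthritic nodes (17.9% and 15.9% of all genes did), with a median of 0.80. Pmaip1 (Noxa), a death gene, had 10792, 13205 and 11073 in synovium, 477, 730 and 729 in arthritic nodes and 429, 301 and 465 in control nodes (4.20 ± 0.20, adjusted p = 3.08e-08). Perp had 186, 173 and 147 in synovium and was listed at 0 in 5 of the 6 node libraries. Plk2 rose by 3.96 ± 0.53, while Aen and Ccng1 fell by 0.78 and 0.33. Mdm2, the p53 inhibitor, named after its value was seen, rose by 0.95 ± 0.14. None of the 16 was called between arthritic and control nodes by limma, where 1 had an unadjusted p under 0.05 (9.08% of all genes had).

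A list of 16 genes of tissue dissociation and cell stress moved in the same comparison. 14 of 16 rose in synovium against arthritic nodes (median 1.84), where 17.9% of all genes did. Their share of reads was 1.29 to 1.49% in synovium, 0.362 to 0.52% in arthritic nodes and 0.34 to 0.399% in control nodes. Btg2 is in both this list and the p53 list. Of the 3 synovial libraries, library 3 had the largest share of stress reads, the lowest Cdkn1a and the highest Kif23, with Cenpa in between. Every synovial library had a larger share of stress reads than every node library, so stress and tissue cannot be told apart here. Whether stress during digestion had a part in the level of Cdkn1a, Kif23 or Cenpa was not tested.

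Markers of other cells moved with the tissue too, in a comparison where 17.9% of all genes rose and 15.9% fell. The 8 dendritic genes summed to 12966 to 15836 in synovium, 4433 to 5331 in arthritic nodes and 3099 to 4733 in control nodes, 3 of 4 tested rose (Zbtb46, Xcr1 and Cd74), and Clec9a was at 0 in all 9 libraries. The 7 macrophage genes summed to 79.8 to 314 in synovium, 31.7 to 535 in arthritic nodes and 73.1 to 367 in control nodes, with 1 of 4 tested called, Cd14, which rose. Of 8 fibroblast genes tested 1 rose (Sparc) and 1 fell (Prg4). Of the other lists, 5 of 9 Treg and T cell genes rose, 1 of 4 B and plasma cell genes rose and 1 fell, and 1 of 2 germinal centre genes, 1 of 1 neutrophil gene and 2 of 3 mast cell genes rose. None of 3 CD8 T and NK cell genes and 1 erythroid gene was called. The part of such cells in the results was not tested. The calls of Cdkn1a, Kif23, Cenpa, Cdkn1b and Ccnd3 held in all 20 alternative analyses. 1 of these left out synovial library 3, the one richest in fibroblast RNA. Fibroblast genes were still read in synovial libraries 1 and 2 (mean log2 level 5.05 and 4.34), so that fit says nothing about fibroblasts. The dendritic sum was raised in all 3 synovial libraries, so leaving out 1 of them says nothing about those cells.

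To see which genes ran most like mitosis over the 9 libraries, 9386 other genes with a mean of 50 or more were ranked by Pearson correlation with the mean log2 level of the 21 mitotic genes. The 10 most alike were Cenpf (r = 0.972), 2810417H13Rik (0.966), Nek2 (0.954), Cdca8 (0.945), Cdca3 (0.94), Prc1 (0.94), Ncapg (0.939), Ncaph (0.935), Capn10 (0.931) and Ift43 (0.93). 6 of the 10 are in the list of other G2 and M genes: Cenpf, Cdca8, Cdca3, Prc1, Ncapg and Ncaph. The correlation describes libraries that share group and depth, was taken as the top of many, and carries no p.

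The authors' deposited table compares synovium with arthritic nodes in DESeq2. Of the 51 genes, the authors' deposited table has 8 higher and 6 lower at an adjusted p under 0.05, and 12 of these were the genes called by limma. The added 2 were Gmnn and Hmgb2. For Cdkn1a the authors' deposited table gives a log2 fold change of 6.33, and for Kif23 4.01.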

How the data were processed

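Tregs sorted from synovium and draining nodes were sequenced, with 3 libraries in each of 3 groups. Per the submitters' processing notes, HISAT2, HTSeq and DESeq2 were used with mm10; versions, annotation and strand setting are not stated in the sources used. The authors deposited a normalized signal per gene and library, which is the read count divided by a size factor: 100% of the values were whole multiples of 1 step per library within 0.01, although in control node library 1 the step is so near 1 that the test says less there. The authors' deposited table of synovium against arthritic node holds a mean normalized signal, a log2 fold change with its error, p-values with their adjusted form, and a score per gene from the Wald test. Rerunning DESeq2 on the recovered reads gave its log2 fold changes within 1.4e-06, which fixes the direction as synovium over arthritic node. All columns were mapped to samples by name.

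Tests used limma 3.58.1 (R 4.3.3), with a mean-variance trend, on log2(value + 1) of all 9 libraries and the 11357 genes whose mean reached 10, with Benjamini-Hochberg adjustment and a threshold of 0.05. The alternatives were other pseudocounts, filters and scalings, no trend, only the groups compared, edgeR 4.0.16, DESeq2 1.42.0, a replicate block and each library left out. A value of 3 reads, taken as the limit that a count of 0 allows, corresponds to 2.61 to 3.52 normalized counts and covers counting error only.

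The titles number the arthritic mice in both tissues, so the block pairs synovium with node. Residual correlations of the pairs were 0.0239, 0.054 and 0.0891, each synovial library correlating best with the arthritic node library of its own number. Nothing else states that libraries are separate animals, so p-values measure the spread between these libraries.

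On simulated counts of 11295 genes for the tissue comparison, the test recovered 45.9% of changes of 2-fold and 71.4% of 4-fold, and 6.5% of calls were false. The simulation changed only 98 tested genes by each fold, whereas 33.8% of genes were called in the data. The adjusted p depends on that share, so these rates need not carry over. The members and lists were chosen with earlier results of these data known. Members called in any comparison, and Mki67, Top2a, Mcm2, Pcna, Cdkn1a, Cdkn1b, Ccnd2, Ccnd3 and Rb1 in any case, are given in full, other members by library value or range. Of other listed genes up to 3 per list and direction, ranked by fold change and reaching a mean of 50 in the group where they are higher, are named, and exceptions are marked. Genes were placed with GENCODE vM21 (GRCm38), and promoters are from RefSeq (GRCm38.p6).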

Additional observations from a re-analysis of the deposited data

How the results depend on the processing

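Of the 51 genes, 12, 1 and 19 were called for tissue, for disease in the node and for synovium against control nodes. Without the mean-variance trend the counts were 7, 0 and 12. For disease the count was 0 without a filter on low values and with only the 2 groups compared, and 3 with DESeq2. Over libraries left out it ran from 6 to 15, from 0 to 2 and from 10 to 27. With only the 2 groups compared the counts were 14, 0 and 17, and there with the replicate block 16, 0 and 21; for the 2 comparisons with control mice, whose numbers name different mice (residual correlations of 0.0046 to 0.0703 for disease), the samples share only a number. Over all genes, disease calls were 39, with 10 without the trend, 0 in the node libraries alone, 175 with DESeq2, 0 with the block and 0 to 66 over libraries left out.

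Log2 differences near 0 changed sign. For tissue, Mcm4 was -0.0586 with quantile scaling and Cdk1 was -0.0485 with edgeR and -0.0071 with DESeq2. Over libraries left out, Cdk1 ran from -0.1778 to 0.5482 and Ccnb2 from -0.5539 to 0.2355. For disease, Ccnd2 ran from -0.1098 to 0.0045, Nusap1 from -0.3193 to 0.8715 and Plk1 from -0.1483 to 1.1282. Against control nodes, Cdc20 was -0.0585 with quantile scaling and -0.0324 with edgeR, and over libraries left out Cdc20 ran from -0.2786 to 0.2671, Rb1 from -0.6312 to 0.1253 and Mcm2 from -0.4816 to 0.0507. The cause was not tested. Quantile scaling moved the median of all genes to -0.12 (tissue) and -0.13 (against control nodes), where the members' medians were 0.09 and 0.77; all-gene calls were then 1711 higher and 2344 lower, and 1999 and 2747. Depth limits E2f1, Foxm1 and Plk1, which had libraries at or near 3 reads.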
